A study of Mus musculus with 12 samples.

Results

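Genomic imprinting leaves a gene active on the copy from one parent only. The choice is held by DNA methylation, set in the germ line at a control region that several neighbouring genes can share. Many genes expressed from the paternal copy favour fetal growth and many expressed from the maternal copy restrain it, and most are turned down after birth in most tissues. In the fetal liver, where blood forms before birth, Igf2 and Dlk1 are known products of hepatoblasts and supporting cells. Messenger RNA of 10 such genes is described here: Igf2, Dlk1, Plagl1, Mest, Grb10, Cdkn1c, Peg3, Peg10, Ndn and Impact. They were listed by symbol as imprinted genes that act on growth, and all 10 were found among the 21885 genes measured. The values do not separate the 2 parental copies, so nothing below says whether a gene was imprinted in these cells.

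RNA was sequenced from 12 libraries of sorted mouse cells in 3 groups of 4. Pax5 KO cells were common lymphoid progenitors and pre-pro-B cells, the stages before commitment to the B lineage, from Pax5-/- fetal liver. Pax5 WT cells were pro-B and pre-BI cells, the next stages, from Pax5+/+ fetal liver. P80R B-ALL cells were GFP+ cells of a B-cell acute lymphoblastic leukaemia expressing the PAX5 P80R mutant, taken from the 4 primary recipients 1300, 1301, 1302 and 1308. Pax5 is the transcription factor that commits cells to the B lineage, and P80R changes its DNA-binding domain. Between Pax5 KO and Pax5 WT, genotype and sorted stage cannot be told apart. Against either fetal liver group, the mutant, the leukaemia and the host tissue cannot be told apart. The ages of the animals, the treatment of the recipients and the promoter behind the mutant were not given in the sources used here, nor whether the fetal liver libraries came from separate animals, so the p-values measure the spread between libraries, which may be technical.

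Each library held 24914250 to 43513852 reads assigned to genes, with the P80R B-ALL libraries the shallowest (up to 29386256). Within a group, Spearman's rho between pairs of libraries was lowest in P80R B-ALL (0.943 to 0.960), against 0.976 to 0.979 for Pax5 KO and 0.972 to 0.976 for Pax5 WT. Pax5, the gene that checks the labels, read 6194 to 7315 in Pax5 WT, 255 to 1316 in P80R B-ALL and 229.9 to 267 in Pax5 KO. These and all values below are scaled reads, which are read counts that the authors divided by 1 factor per library. The summed level of 8 B-lineage markers was highest in Pax5 WT, 212956 to 252408, then P80R B-ALL, 86263 to 140600.5, then Pax5 KO, 43634 to 45464. Igll1 gave 31.1% of the sum in Pax5 WT and 39.6% in Pax5 KO, and Vpreb1 22.4% in P80R B-ALL. Not all 8 followed the sum. By the tests described below, Rag1 and Il7r were higher and 6 lower in Pax5 KO than Pax5 WT (35.7% and 29.1% of all genes). Il7r was higher and 5 were lower in P80R B-ALL than Pax5 WT (21.0% and 18.9%). The P80R B-ALL libraries also held markers of other cells. The sum of 12 erythroid markers was 32787 to 1070778 there, highest in 1308 and then 1300, against 119.6 to 269.5 in the fetal liver libraries, where 4 of the 12 reached 10 scaled reads in each group. The sum of 10 macrophage and monocyte markers was 10511 to 64886, highest in 1308, against 3797 to 4151 in Pax5 KO and 601 to 827 in Pax5 WT. All 10 reached 10 scaled reads in P80R B-ALL, 7 in Pax5 KO and 4 in Pax5 WT, and C1qc and Cd5l were at 0 in all 8 fetal liver libraries. In bulk samples, fewer cells of a type and less RNA per cell cannot be told apart.

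The promoters of the 3 genes on which most of the results turn are shown first, because they differ widely in CpG content. Each window runs from 250 bases before to 50 bases after a start of the gene in the RefSeq annotation of build GRCm38.p6, 5′ to 3′ on the strand of the gene. Capitals mark CpG, the pair of letters at which mammalian DNA is methylated. Grb10 has an upstream and a downstream start in this annotation, and both are given.
Dlk1, chr12:109452573-109452872, plus strand: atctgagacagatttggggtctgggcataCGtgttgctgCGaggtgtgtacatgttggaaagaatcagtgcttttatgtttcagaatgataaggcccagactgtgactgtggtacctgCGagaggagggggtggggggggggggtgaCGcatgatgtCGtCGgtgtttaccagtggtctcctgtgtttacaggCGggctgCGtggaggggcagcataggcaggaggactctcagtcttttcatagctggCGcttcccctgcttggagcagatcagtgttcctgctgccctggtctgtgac
Plagl1, chr10:13090582-13090881, plus strand: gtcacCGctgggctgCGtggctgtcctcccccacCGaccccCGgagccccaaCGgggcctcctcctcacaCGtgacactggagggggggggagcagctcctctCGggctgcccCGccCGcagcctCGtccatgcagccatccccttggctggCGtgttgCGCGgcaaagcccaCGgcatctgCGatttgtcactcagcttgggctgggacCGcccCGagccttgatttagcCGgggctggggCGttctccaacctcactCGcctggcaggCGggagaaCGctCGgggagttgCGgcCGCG
Grb10, upstream start, chr11:12037371-12037670, minus strand: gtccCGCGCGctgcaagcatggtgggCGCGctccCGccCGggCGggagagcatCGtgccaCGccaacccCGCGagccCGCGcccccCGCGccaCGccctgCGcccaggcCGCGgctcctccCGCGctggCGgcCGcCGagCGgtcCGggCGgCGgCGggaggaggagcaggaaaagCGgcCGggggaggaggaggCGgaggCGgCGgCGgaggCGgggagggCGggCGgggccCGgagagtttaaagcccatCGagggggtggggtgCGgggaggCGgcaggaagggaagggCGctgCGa
Grb10, downstream start, chr11:12027922-12028221, minus strand: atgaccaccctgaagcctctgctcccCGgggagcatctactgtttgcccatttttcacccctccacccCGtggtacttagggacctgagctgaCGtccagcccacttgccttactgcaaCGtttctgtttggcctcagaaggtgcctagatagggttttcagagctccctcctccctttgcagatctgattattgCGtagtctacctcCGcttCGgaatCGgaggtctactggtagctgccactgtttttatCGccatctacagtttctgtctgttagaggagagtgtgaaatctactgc

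The upstream Grb10 window held 45 CpG, more than 98.1% of the 32851 windows in the annotation, and the Plagl1 window held 26. The downstream Grb10 window and the Dlk1 window held 9 each, close to the median of 7 over all windows. In all, 13 windows were found for 7 members, and Cdkn1c, Peg10 and Impact had none. Both strands were searched for TGCCGC, the core motif of the imprint-keeping factor ZFP57. It was present in 5 windows (Plagl1, upstream Grb10, 1 of Igf2 and 2 of Mest, which share nearly all their bases), against 11.6% of all windows. The motif itself holds a CpG, and the 5 windows held 14 to 45 CpG against the median of 7. The 11.6% was not matched for CpG, so the comparison does not show enrichment. Such matches describe the letters and are not evidence of binding, and no methylation was measured.

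Differences were tested with limma on log2(scaled reads + 1), fitted to the 8 libraries of the groups compared. They are given as a log2 difference ± standard error (SE), with a Benjamini-Hochberg adjusted p over the 12200 genes tested, called under 0.05. On this scale the change of a low gene is understated. Folds are ratios of group means of scaled reads, group values are mean ± SD with n = 4, and a group at 0 was set to a floor of 3 reads per library, which gives "at least" a fold. The filter on low values (10 scaled reads in at least 4 libraries) was passed by 9 members, Igf2 through Pax5 KO alone, and Peg10 was not tested. No Pax5 WT library of Plagl1 and no P80R B-ALL library of Peg3 reached 10 scaled reads, so the filter favoured their differences from those groups.

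Between Pax5 KO and Pax5 WT, 5 tested members were higher in Pax5 KO (Igf2, Dlk1, Plagl1, Grb10 and Impact), 2 were lower (Cdkn1c and Peg3), and Mest and Ndn were not called. The 2 groups differ widely: 64.8% of all genes tested were called, 35.7% as higher and 29.1% as lower, so 7 calls among 9 is near what genes in general show. Igf2 passed the filter through Pax5 KO alone and had to differ there. Without it, 4 of 8 were higher and 2 lower in Pax5 KO. In P80R B-ALL against Pax5 WT, Plagl1 was higher and Peg3 lower, 2 calls of 9, where 39.9% of all genes were called (21.0% higher, 18.9% lower). Against Pax5 KO, limma called Igf2, Dlk1 and Impact lower and none higher, 3 calls of 9, where 38.4% of all genes were called (17.6% higher, 20.8% lower; with DESeq2, 2938 genes were higher and 2203 lower, against 2151 and 2532). None was higher there at an unadjusted p under 0.05 or with edgeR, and 1 was with DESeq2, Plagl1. Groups did not overlap for 4 of the 10 members between Pax5 KO and Pax5 WT (59.1% of all genes tested), 2 between P80R B-ALL and Pax5 WT (40.6%) and 4 between P80R B-ALL and Pax5 KO (42.4%). Without Igf2, 2 of 8 were lower than in Pax5 KO. The median log2 difference of these 8 members was 0.53, 0.06 and -0.54 in the 3 comparisons, against 0.06, -0.00 and -0.11 over all genes tested. The comparisons share groups, so their values are set side by side and not counted as repeats.

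**Figure D1:**
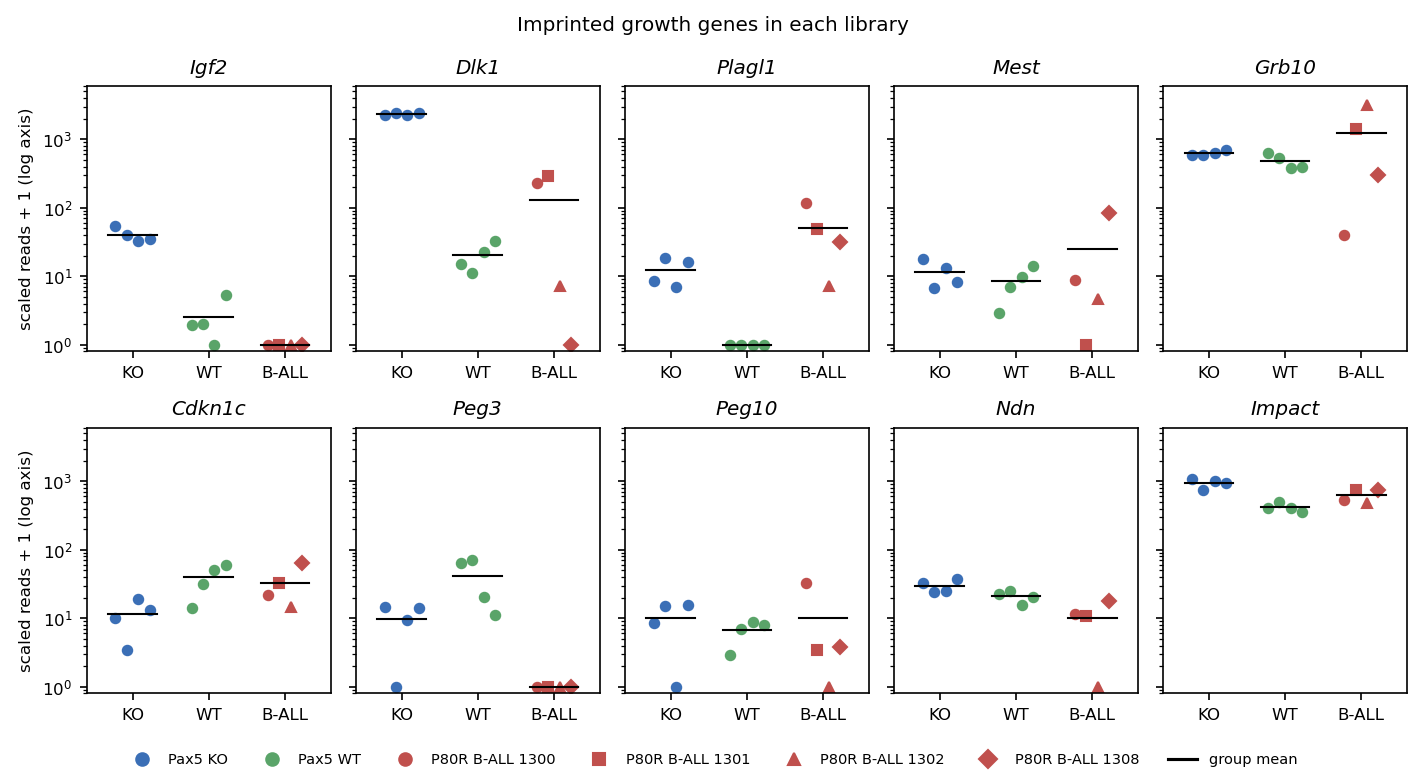
Scaled reads plus 1 (log axis) of the 10 imprinted growth genes in each library, by group, with a bar at the group mean and a shape for each leukaemia recipient. Dlk1 sits between 2284 and 2432 in Pax5 KO and spreads from 0 to 287 in P80R B-ALL, Plagl1 is at 0 in all 4 Pax5 WT libraries, and Peg3 and Igf2 are at 0 in all 4 P80R B-ALL libraries.

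Dlk1 encodes a transmembrane protein with EGF repeats, related to the Notch ligands, that holds precursor cells in an immature state. Its levels in Pax5 KO libraries 1 to 4 were 2290.1, 2432, 2284 and 2412. In Pax5 WT they were 14.2, 10.0, 21.8 and 31.8. In P80R B-ALL they were 227 in recipient 1300, 287 in 1301, 6.20 in 1302 and 0 in 1308. The Pax5 KO libraries thus lay within a narrow range far above the others, while 2 leukaemias lay above the whole of Pax5 WT and 2 below it. Dlk1 was 121-fold higher in Pax5 KO than Pax5 WT (6.97 ± 0.27, adjusted p = 5.95e-10, limma). It was 18.1-fold lower in P80R B-ALL than in Pax5 KO (-6.49 ± 1.65, adjusted p = 0.0153, limma). That log2 difference was -7.53 without 1300, -7.64 without 1301, -5.87 without 1302 and -4.92 without 1308, and it stayed called each time. Against Pax5 WT it was 0.48 ± 1.67 (adjusted p = 0.842, limma), with overlapping ranges.

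Dlk1 is also a known surface marker of hepatoblasts, so the hepatocyte and hepatoblast list belongs beside it. The summed level of its 16 markers was 25.8 to 42.5 in Pax5 WT, where 1 marker reached 10 scaled reads, 483 to 575 in Pax5 KO (3 markers) and 11115 to 22945 in P80R B-ALL (4 markers). Alb, Apoa1, Ttr, Fga, Fgb, Fgg, Serpina1a and Serpina1b, which define hepatocytes, were at 0 in all 12 libraries. Trf, transferrin, made up 99.4% of the sum in P80R B-ALL (10927 to 22910.2) and 82.7% in Pax5 KO. Afp, the fetal albumin relative, read 0 to 3.95 in Pax5 WT, 50.1 to 79.2 in Pax5 KO and 2.46 to 83.0 in P80R B-ALL. The 9 stromal markers summed to 2.97 to 13.2 in Pax5 WT (0 reached 10), 1006 to 1178 in Pax5 KO (5) and 1229 to 20905 in P80R B-ALL (9). In the same order, the 9 endothelial markers summed to 960.4 to 1167 (3), 9304 to 9798 (2) and 3594 to 9389 (9), and the 9 of stem and early progenitor cells to 3721 to 5794 (4), 20304 to 23349.9 (5) and 2595 to 14928 (7). Pdgfrb alone gave 92.8% of the stromal sum in Pax5 KO (942 to 1164), where the collagens read 0 to 79.9, and Cxcl12 77.0% in P80R B-ALL. Egfl7 gave 96.7%, 99.4% and 92.6% of the endothelial sum in Pax5 WT, Pax5 KO and P80R B-ALL, and Kit 98.4% of the stem and progenitor sum in Pax5 WT. Emcn and Cldn5 of the endothelial list were at 0 in all fetal liver libraries, but Kdr of the same list was not. Kdr held 45 to 68 reads before scaling in Pax5 KO and 8 to 38 in Pax5 WT, and limma called it higher in Pax5 KO. The part of such cells in the Dlk1 levels was not tested.

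Over the 12 libraries, the gene whose log2 values followed Dlk1 most closely was Slc18a1, a vesicle transporter of monoamines (Pearson r = 0.98), then Sgsm1 (r = 0.96). Slc18a1 averaged 132 in Pax5 KO, 7.98 in Pax5 WT and 14.4 in P80R B-ALL. Its 4 leukaemia values, 34.2, 19.7, 3.72 and 0 in the order 1300, 1301, 1302 and 1308, were again higher in the first pair than in the second. These correlations describe 3 groups far apart in level and carry no p.

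Of 13 Notch receptors, ligands and targets, 9 were tested. In Pax5 KO 6 were higher than in Pax5 WT and none lower (35.7% and 29.1% of all genes). Notch1 was 10185 ± 638 in Pax5 KO, 668 ± 216 in Pax5 WT and 1304 ± 604 in P80R B-ALL, 15.2-fold higher in Pax5 KO than Pax5 WT (4.00 ± 0.22, adjusted p = 1.22e-08, limma). Jag2, a Notch ligand, was 239 ± 44.9, 4.21 ± 3.06 and 237 ± 102 in the same order. The ranges of Jag2 in P80R B-ALL and Pax5 KO overlapped (-0.09 ± 0.34, adjusted p = 0.851, limma), while Notch1 was 7.81-fold lower in P80R B-ALL (-3.08 ± 0.29, adjusted p = 2.69e-04, limma). Against Pax5 WT, 3 were higher and none lower in P80R B-ALL (21.0% and 18.9% of all genes), and against Pax5 KO, 3 were lower and none higher (20.8% and 17.6%). The counts of 0 in these comparisons were also 0 at an unadjusted p under 0.05, with edgeR and with DESeq2.

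Igf2 encodes a secreted growth factor that acts through the IGF1 and insulin receptors and is cleared by the IGF2 receptor. It read 53.3, 39.4, 31.7 and 34.0 in Pax5 KO, 0.945, 1.00, 0 and 4.30 in Pax5 WT, and 0 in all 4 P80R B-ALL libraries. Every Pax5 KO library lay above every other library, yet at its highest Igf2 rested on 70 reads. Igf2 passed the filter through Pax5 KO alone, so among the genes that passed it had to differ there, and its tests are given from the fit with no filter. The log2 difference of Pax5 KO from Pax5 WT, whose mean lay under the floor, was 4.22 (adjusted p = 5.81e-04, limma with no filter). Igf2 was at least 10.2-fold lower in P80R B-ALL than in Pax5 KO (adjusted p = 2.54e-04, limma with no filter). With P80R B-ALL and Pax5 WT both at or under the floor, no fold can be given. In the annotation 64.5% of the exon bases of Igf2 are shared with other genes, mainly Gm49394 on the same strand. Gm49394 was at 0 in all 12 libraries, and how the authors counted shared reads was not given in the sources used here, so the Igf2 levels are uncertain.

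Igf2r and Igf1r were far lower in the leukaemias than in either fetal liver group, and Insr, the insulin receptor gene, was not called (adjusted p = 0.739 against Pax5 WT and 0.170 against Pax5 KO, limma). Igf2r, the imprinted receptor that takes Igf2 out of circulation, read 812, 1102, 1022 and 885 in Pax5 KO and 1161, 1231, 1328 and 741 in Pax5 WT. It read 28.9, 20.9, 37.2 and 101 in recipients 1300, 1301, 1302 and 1308. All 4 leukaemias thus lay far below all 8 fetal liver libraries. Igf2r was 23.7-fold lower in P80R B-ALL than in Pax5 WT (-4.77 ± 0.46, adjusted p = 9.42e-05, limma) and 20.3-fold lower than in Pax5 KO (-4.57 ± 0.45, adjusted p = 2.94e-04, limma). Igf1r, the signalling receptor, was picked after its values were seen. It averaged 549 ± 86.2 in Pax5 KO, 960.1 ± 174 in Pax5 WT and 39.0 ± 28.6 in P80R B-ALL, 24.6-fold lower there than in Pax5 WT (-5.06 ± 0.69, adjusted p = 5.01e-04, limma). Without recipient 1302, where Igf1r read 4.96, that difference was -4.31 (adjusted p = 1.25e-04, limma). Igf1, also picked after its values were seen, went the other way, and limma called it higher in P80R B-ALL than in both fetal liver groups. It held 180, 185, 190 and 1190 reads before scaling in 1300, 1301, 1302 and 1308, against 0 to 8 in Pax5 KO and 30 to 41 in Pax5 WT. The part of other cells in the Igf1 values was not tested.

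**Figure D2:**
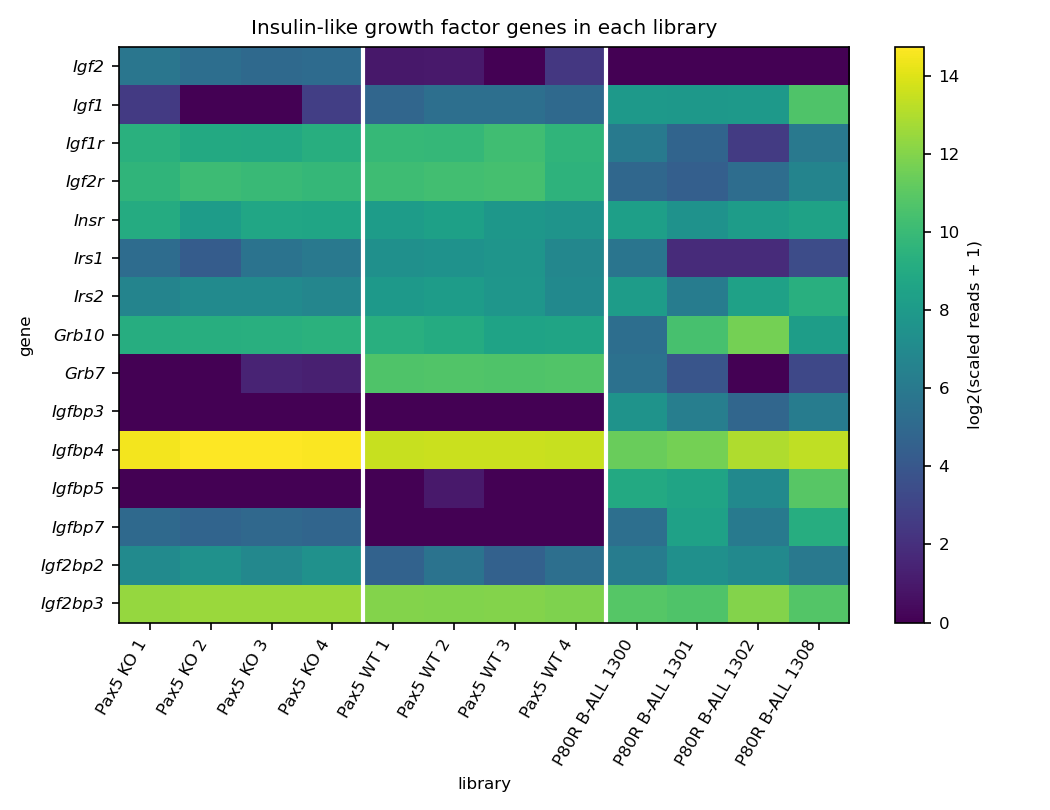
Log2(scaled reads + 1), as colour, of Igf2, Grb10 and 13 other genes of insulin-like growth factor signalling in the 12 libraries, columns grouped as Pax5 KO, Pax5 WT and P80R B-ALL. The genes shown were picked after their values were seen. The leukaemia columns are dark for Igf2 (0) and low for Igf1r (4.96 to 63.1) and Igf2r (20.9 to 101), and light for Igfbp5 (127 to 1908), which reads 0 to 1.00 elsewhere.

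Of the secreted binding proteins, Igfbp3 and Igfbp5 were higher in the leukaemias than in both fetal liver groups, and Igfbp4 was lower than in Pax5 KO. Igfbp3, the main carrier of these factors in plasma, was at 0 in all 8 fetal liver libraries and read 192, 77.5, 28.5 and 70.6 in the leukaemias, at least 32.4-fold higher than in Pax5 WT (adjusted p = 2.56e-04, limma with no filter). Igfbp5 read 498, 391, 127 and 1908 there, at least 308-fold higher than in Pax5 KO (adjusted p = 2.44e-04, limma with no filter). Igfbp3, Igfbp5 and Dcn passed the filter through P80R B-ALL alone, so among the genes that passed they had to differ there. In the filtered fit the log2 difference of Igfbp5 from Pax5 KO, 8.87 ± 0.77, was 9.49 without 1302 and 8.19 without 1308. These values describe its dependence on single leukaemias and are not further evidence of a difference. Igfbp7 was at 0 in Pax5 WT, 28.5 ± 2.98 in Pax5 KO and 257 ± 256 in P80R B-ALL. Its difference from Pax5 KO (2.39, adjusted p = 0.0429, limma) lost its call in 7 of 15 settings, among them leaving out any 1 Pax5 KO library, 1301 or 1308 (adjusted p = 0.0691 to 0.106). Igfbp4, picked after its values were seen, was 25476 ± 2013 in Pax5 KO, 11722 ± 285 in Pax5 WT and 6052 ± 3753 in P80R B-ALL, 4.21-fold lower there than in Pax5 KO (-2.31 ± 0.41, adjusted p = 0.00348, limma). Its difference from Pax5 WT (-1.19, adjusted p = 0.0411, limma) lost its call in 8 of 16 settings, among them leaving out any 1 Pax5 WT library, 1300 or 1301 (adjusted p = 0.0790 to 0.0973). Dcn, an imprinted proteoglycan gene of connective tissue, was likewise at 0 in all fetal liver libraries and read 77.6, 102, 45.9 and 324. In 1308, Igfbp5, Igfbp7, Dcn and the stromal markers were each at their highest (584 for Igfbp7, 20905 for the stromal sum). The part of stromal cells in these values was not tested.

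Of the 29 genes on the insulin-like growth factor list, 24 were tested. In Pax5 KO against Pax5 WT 8 were higher and 9 lower (35.7% and 29.1% of all genes). In P80R B-ALL against Pax5 WT 6 were higher and 12 lower (21.0% and 18.9% of all genes), and against Pax5 KO 4 were higher and 8 lower (17.6% and 20.8%). Igfbp3 and Igfbp5, which passed the filter through P80R B-ALL alone and had to be higher there, are among the genes higher in both comparisons. The list's median log2 differences were -0.07, -0.43 and -0.43. Pik3r1, the regulatory subunit of the kinase PI3K, was 8854 ± 409 in Pax5 KO, 1654 ± 161 in Pax5 WT and 3215 ± 764 in P80R B-ALL, 5.35-fold higher in Pax5 KO than Pax5 WT (adjusted p = 7.31e-11, limma). Grb7, an adaptor related to Grb10, read 1620.4 to 1719.8 in Pax5 WT, 0 to 1.71 in Pax5 KO and 0 to 43.4 in P80R B-ALL.

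Grb10 encodes an adaptor that binds the activated insulin and IGF1 receptors and dampens their signal. It is maternally expressed in most tissues. It read 579, 593, 628 and 689.8 in Pax5 KO and 636, 525, 374 and 394 in Pax5 WT. In P80R B-ALL it read 39.4 in 1300, 1407 in 1301, 3199 in 1302 and 296 in 1308. The fetal liver groups overlapped, and the leukaemias fell on both sides of both, with 1301 and 1302 above all 8 fetal liver libraries and 1300 and 1308 below them.

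Grb10 was 1.29-fold higher in Pax5 KO than Pax5 WT (0.40 ± 0.16, adjusted p = 0.0401, limma), a small difference that several settings ended. The adjusted p was 0.0578, 0.0630, 0.0801 and 0.106 without Pax5 KO replicates 1 to 4 in turn, and 0.122 and 0.0840 without Pax5 WT replicates 3 and 4. It was 0.123 with no filter and 0.786 with a fit to all 12 libraries. From Pax5 WT, the log2 difference of P80R B-ALL was 0.03 ± 1.16 (adjusted p = 0.986, limma), although the ratio of means was 2.56. Against Pax5 KO it was -0.37 ± 1.16 (adjusted p = 0.824, limma), although the mean was 1.98-fold higher. Recipient 1302 held 3199 of the scaled reads. Without 1300 and 1308, the libraries with the most erythroid and macrophage RNA, the difference from Pax5 KO was 1.77 (adjusted p = 0.00390, limma) and that from Pax5 WT 2.17 (adjusted p = 0.00359, limma). The libraries then left are the 2 in which Grb10 is highest, and the part of other cells in its level was not tested.

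Ddc, the neighbour of Grb10 in its imprinted domain, encodes the enzyme that makes dopamine and serotonin from their precursors. It read 108 to 148 in Pax5 KO and 225 to 294 in Pax5 WT, and 459, 13428, 12429 and 1528 in recipients 1300, 1301, 1302 and 1308. Both genes were thus highest in 1301 and 1302 and lowest in 1300. Unlike Grb10, Ddc lay above every fetal liver library in all 4 leukaemias. It was 26.5-fold higher in P80R B-ALL than in Pax5 WT (3.65 ± 0.99, adjusted p = 0.0180, limma) and 55.4-fold higher than in Pax5 KO (4.71 ± 1.00, adjusted p = 0.00726, limma). The difference from Pax5 WT was 4.60 without 1300, 2.98 without 1301 and 3.01 without 1302, and stayed called. Ddc was 2.09-fold lower in Pax5 KO than in Pax5 WT (-1.06 ± 0.16, adjusted p = 1.07e-04, limma), a call that a fit to all 12 libraries ended (adjusted p = 0.367). Over the 12 libraries the Pearson r of their log2 values was 0.41. The genes that followed Grb10 most closely were BC024063 (r = 0.95) and 6030408B16Rik (r = 0.94). Both were at 0 in 1300 and reached 181 and 1159 in 1301, and 249 and 805 in 1302.

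**Figure D3:**
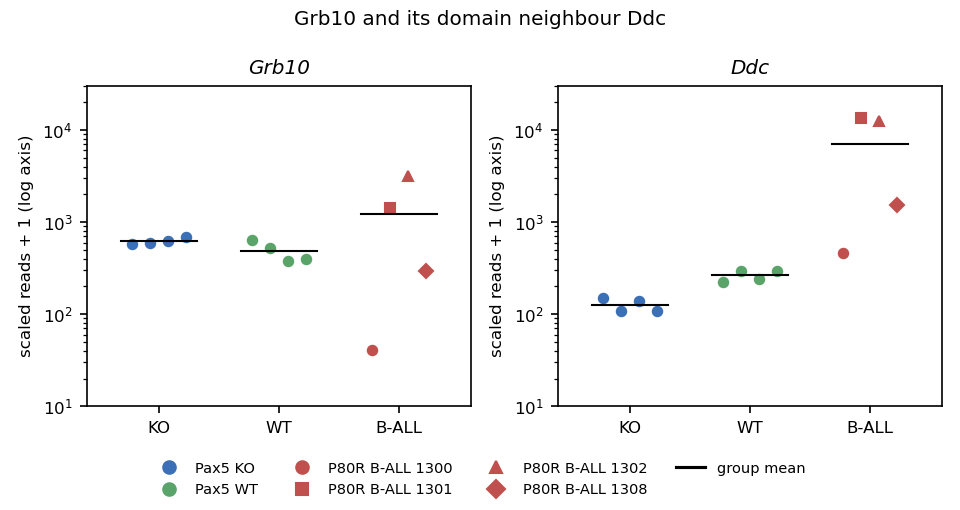
Scaled reads plus 1 (log axis) of Grb10 and Ddc in each library by group, with a bar at the group mean and a shape for each leukaemia recipient. For both genes recipients 1301 and 1302 lie highest and 1300 lowest, with Grb10 from 39.4 to 3199 and Ddc from 459 to 13428.

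Plagl1 encodes a zinc finger transcription factor that can halt the cell cycle and that regulates other imprinted genes. It was at 0 in all 4 Pax5 WT libraries. It read 7.61, 17.3, 6.00 and 15.2 in Pax5 KO, and 116, 48.0, 6.20 and 30.4 in recipients 1300, 1301, 1302 and 1308. Every library of the other groups lay above Pax5 WT, and the leukaemias spread across and above the Pax5 KO range. Plagl1 was at least 4.04-fold higher in Pax5 KO than Pax5 WT (adjusted p = 9.30e-05, limma) and at least 17.6-fold higher in P80R B-ALL (adjusted p = 0.00191, limma). The Pax5 KO values rest on 10, 21, 7 and 21 reads. Plagl1 passed the filter through 2 Pax5 KO and 3 P80R B-ALL libraries, which favours both differences. The fitted log2 difference of the leukaemias from Pax5 WT, 5.08 ± 0.89, was 4.48 without 1300 and 5.82 without 1302. Against Pax5 KO it was 1.55 ± 0.85 (adjusted p = 0.178, limma). That became a call without 1302 (2.29, adjusted p = 0.0236) and with DESeq2 (2.22, adjusted p = 0.0393). Plagl1 was highest in 1300, which had the second highest erythroid and macrophage sums, and the part of such cells was not tested.

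Peg3, a paternally expressed zinc finger gene, showed a different order. It read 13.7, 0, 8.57 and 13.002 in Pax5 KO and 62.4, 69.0, 19.8 and 10.3 in Pax5 WT, and was at 0 in all 4 leukaemias. The fetal liver ranges overlapped through replicate 4 of Pax5 WT. Peg3 was at least 10.4-fold lower in P80R B-ALL than in Pax5 WT (adjusted p = 0.00105, limma). It was 4.58-fold lower in Pax5 KO than in Pax5 WT (-2.26 ± 0.86, adjusted p = 0.0364, limma). That call was lost without Pax5 KO replicate 2 (-1.35, adjusted p = 0.0834) or 3 (adjusted p = 0.0513), without Pax5 WT replicate 1 (adjusted p = 0.0930) or 2 (adjusted p = 0.103), with no filter (0.139) and with a fit to all 12 libraries (0.0691). In P80R B-ALL against Pax5 KO the adjusted p was 0.0520 by limma, and 0.0139 without Pax5 KO replicate 2, the 1 Pax5 KO library at 0.

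Cdkn1c encodes p57, an inhibitor of cyclin-dependent kinases expressed from the maternal copy. It read 9.14, 2.47, 18.0 and 12.3 in Pax5 KO, 13.2, 31.0, 50.4 and 59.3 in Pax5 WT, and 21.0, 31.996, 13.6 and 62.3 in the leukaemias. It was 3.68-fold lower in Pax5 KO than in Pax5 WT (-1.83 ± 0.58, adjusted p = 0.0159, limma), although the highest Pax5 KO library lay above the lowest of Pax5 WT. The adjusted p was 0.0677 with no filter and 0.0513 with a fit to all 12 libraries. In P80R B-ALL it overlapped Pax5 WT (-0.27 ± 0.65, adjusted p = 0.772, limma) and Pax5 KO (1.56 ± 0.72, adjusted p = 0.114, limma). An antisense gene covers 30.7% of its exon bases, and the library kit does not mark strand, so reads of the pair cannot be told apart.

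Among 11 CDK inhibitors, D cyclins and their kinases, Pax5 KO had 4 higher and 6 lower than Pax5 WT (35.7% and 29.1% of all genes). Cdkn1a, which encodes p21, was 3885 ± 364 in Pax5 KO, 1159.9 ± 93.9 in Pax5 WT and 1029 ± 696 in P80R B-ALL, 3.35-fold higher in Pax5 KO than Pax5 WT (adjusted p = 3.93e-09, limma). Cdkn2c, which encodes p18, was 555 ± 31.3 in Pax5 KO and 2472 ± 88.6 in Pax5 WT, and read 18544, 1919.7, 1011 and 6149 in the leukaemias. Ccnd3, the D cyclin of proliferating B-cell precursors, was 25096 ± 693 in Pax5 WT against 6985 ± 207 in Pax5 KO and 9690.1 ± 4567 in P80R B-ALL. It was the only gene of the 11 that limma called between P80R B-ALL and Pax5 WT (-1.52 ± 0.32, adjusted p = 0.00533). Of all genes tested, 21.0% were higher and 18.9% lower in that comparison. None of the 11 was higher there at an unadjusted p under 0.05 by limma, and edgeR and DESeq2 each called 1 higher. Against Pax5 KO, 3 were higher in P80R B-ALL and 2 lower (17.6% and 20.8% of all genes).

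Ndn encodes necdin, a paternally expressed protein of the MAGE family that restrains proliferation. It read 31.98, 23.0, 24.0 and 36.8 in Pax5 KO, 21.7, 24.0, 14.8 and 19.8 in Pax5 WT, and 10.5, 9.84, 0 and 16.6 in P80R B-ALL. All 4 leukaemias lay below all 4 Pax5 KO libraries, 1 of the 4 members without overlap there. The test did not call it (-2.10 ± 0.90, adjusted p = 0.0931, limma). It did so without 1308 (-2.56, adjusted p = 0.0483), with a pseudocount of 10 (-1.09, adjusted p = 0.0424) and with a fit to all 12 libraries (adjusted p = 0.0360). Against Pax5 WT, neither the difference of Pax5 KO (0.50 ± 0.30, adjusted p = 0.167, limma) nor that of P80R B-ALL (-1.60 ± 0.91, adjusted p = 0.186, limma) was called.

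Impact, on chromosome 18, encodes a protein that keeps GCN1 from activating the amino acid sensor kinase GCN2. It read 1075, 755, 1018 and 936 in Pax5 KO, 409, 491, 411 and 356 in Pax5 WT, and 527, 748, 483 and 754 in P80R B-ALL. The 4 Pax5 KO libraries were the highest, but the lowest of them read 755 against 754 in 1308, a gap within counting error. That gap alone places Impact among the members without overlap between P80R B-ALL and Pax5 KO. The leukaemias lay above Pax5 WT, except that 1302 fell just under the top Pax5 WT library. Impact was 2.27-fold higher in Pax5 KO than Pax5 WT (1.18 ± 0.13, adjusted p = 6.45e-06, limma). Its 1.51-fold excess in P80R B-ALL over Pax5 WT was not called (0.57 ± 0.22, adjusted p = 0.0600, limma), but was without 1302 (0.69, adjusted p = 0.0292), with DESeq2 (adjusted p = 0.0246) and with a fit to all 12 libraries (adjusted p = 0.0218). It was 1.51-fold lower in P80R B-ALL than in Pax5 KO (-0.61 ± 0.20, adjusted p = 0.0427, limma). That call was lost without Pax5 KO replicates 1, 3 or 4 (adjusted p = 0.119, 0.116 and 0.0973) and without 1300 or 1302 (0.0837 and 0.0763). It was also lost with no filter (0.0536), with edgeR (0.0594), with DESeq2 (0.0763) and with TMM scaling (0.0534). The genes closest to Impact in pattern were Hnrnpll and Tnni1 (r = 0.96 for both).

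Of the partners and downstream genes of Impact, most of those called were lower in the other groups than in Pax5 WT. Eif2ak4, which encodes GCN2, was 1549 ± 174 in Pax5 KO, 1766 ± 200.4 in Pax5 WT and 678 ± 272 in P80R B-ALL, 2.29-fold lower in P80R B-ALL than in Pax5 KO (-1.27 ± 0.27, adjusted p = 0.00673, limma). Gcn1 was 2.59-fold lower in P80R B-ALL than in Pax5 KO (-1.502 ± 0.30, adjusted p = 0.00559, limma). Asns, the asparagine synthetase gene that this pathway turns on, read 3702 to 4833 in Pax5 WT, 508 to 628 in Pax5 KO and 7.44 to 256 in P80R B-ALL. It was 7.02-fold lower in Pax5 KO than in Pax5 WT (-2.81 ± 0.10, adjusted p = 2.26e-10, limma) and 33.7-fold lower in P80R B-ALL (-6.36 ± 1.08, adjusted p = 0.00205, limma). The latter log2 difference ranged from -7.15 without 1308 and -7.06 without 1300 to -5.72 without 1301 and -5.50 without 1302. Of the 14 genes on this list, 7 were lower and 2 higher in Pax5 KO than Pax5 WT (29.1% and 35.7% of all genes). In P80R B-ALL 8 were lower than in Pax5 WT (18.9% of all genes), 6 were lower than in Pax5 KO (20.8%), and limma called none higher. Against Pax5 KO, 1 was higher at an unadjusted p under 0.05 and 1 with DESeq2, and none with edgeR. Against Pax5 WT none was higher by any of these.

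Mest encodes an enzyme-like protein of the alpha/beta hydrolase family, expressed from the paternal copy. It read 16.7, 5.75, 12.0 and 7.22 in Pax5 KO, 1.89, 6.00, 8.90 and 12.9 in Pax5 WT, and 7.89, 0, 3.72 and 83.0 in P80R B-ALL. All ranges overlapped, and no comparison was called (adjusted p = 0.397 for Pax5 KO and 0.964 for P80R B-ALL against Pax5 WT, and 0.787 between them, limma). Copg2 on the opposite strand covers 23.1% of its exon bases, so at these levels its reads are uncertain. The high value is that of 1308, the library with the highest stromal, erythroid and macrophage sums, whose part was not tested. Peg10, a gene derived from a retrotransposon and needed in the placenta, read 7.61, 14.0, 0 and 14.4 in Pax5 KO, 1.89, 6.00, 7.91 and 6.88 in Pax5 WT, and 31.6, 2.46, 0 and 2.77 in P80R B-ALL. It reached 10 scaled reads in 3 libraries, 1 fewer than the filter asks, so it was not tested, and its ranges overlapped in every pair of groups.

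**Figure D4:**
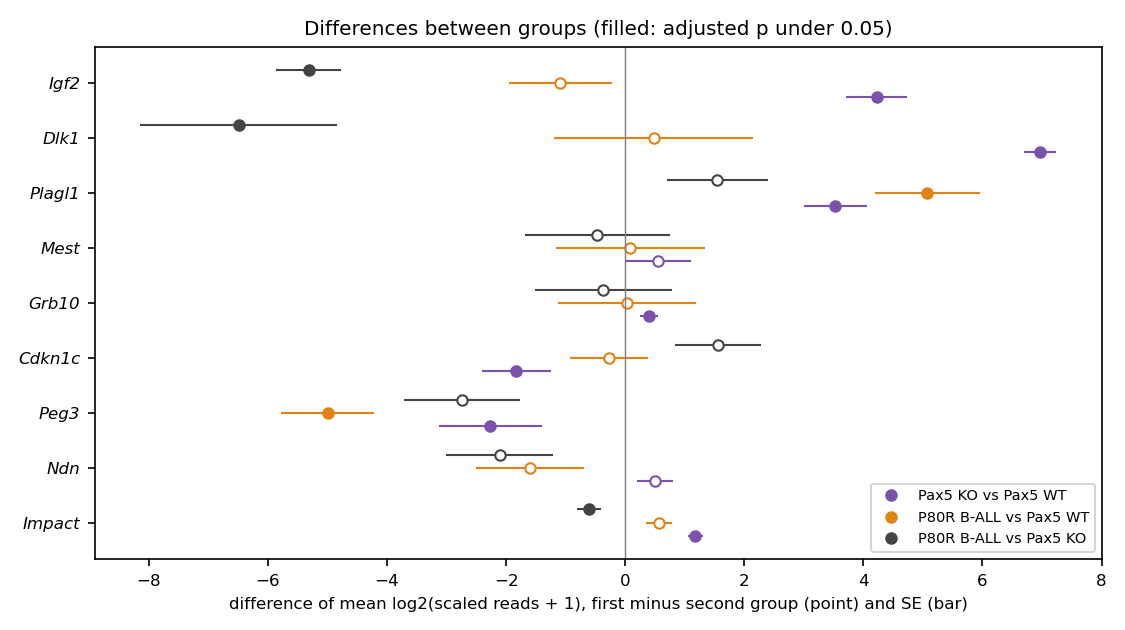
Difference of mean log2(scaled reads + 1) for the 9 tested genes in the 3 comparisons, as a point with its SE, filled where the adjusted p was under 0.05. Bars of the comparisons with P80R B-ALL are long for Dlk1 (1.67 against Pax5 WT) and Grb10 (1.16), and short for Impact (0.20 against Pax5 KO).

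Levels of different genes can be compared only per length, here scaled reads per kilobase of exon. In Pax5 KO the order was Dlk1 at 416 ± 13.9, Impact at 184 ± 27.2 and Grb10 at 68.5 ± 5.42, with no overlap between neighbours, and then Ndn at 7.84 ± 1.79. From Ndn down to Peg3 (0.662 ± 0.473) each gene overlapped the next. In Pax5 WT Impact led at 81.3 ± 10.9 and overlapped Grb10 at 53.1 ± 13.5, with a gap below Grb10 to Cdkn1c at 18.9 ± 10.1. In P80R B-ALL Grb10 at 136 ± 158 and Impact at 122 ± 28.0 overlapped, and Dlk1 followed at 23.0 ± 26.3. Dlk1 thus led in Pax5 KO only, while Impact and Grb10 were among the top 3 in all groups.

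Other imprinted genes and the genes that set, keep or erase imprints are given beside the members. All members but Impact have listed neighbours in an imprinted domain. Of 40 genes listed as domain neighbours, 32 were in the table and 14 were tested. The long RNAs H19, Kcnq1ot1, Meg3, Rian, Mirg and Ipw were not analysed here. In Pax5 KO 5 neighbours were higher and 7 lower than in Pax5 WT (35.7% and 29.1% of all genes). In P80R B-ALL 3 were higher and 1 lower than in Pax5 WT (21.0% and 18.9% of all genes), and 4 were higher and 2 lower than in Pax5 KO (17.6% and 20.8%). Their median log2 differences were -0.14, 0.09 and 0.17.

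Osbpl5, a lipid-transfer gene in the Cdkn1c domain, was 588 ± 63.7 in Pax5 KO, 104 ± 22.3 in Pax5 WT and 564 ± 170.1 in P80R B-ALL, 5.67-fold higher in Pax5 KO than Pax5 WT (adjusted p = 5.37e-08, limma), where Cdkn1c was lower. Cd81, a tetraspanin gene near Igf2 and Cdkn1c, was 1.78-fold lower in Pax5 KO than in Pax5 WT (-0.83 ± 0.05, adjusted p = 3.26e-08, limma). Mkrn3, next to Ndn, was 120.0 ± 24.4 in Pax5 KO, 45.2 ± 13.7 in Pax5 WT and 31.3 ± 13.4 in P80R B-ALL, 2.66-fold higher in Pax5 KO than Pax5 WT (1.41 ± 0.25, adjusted p = 3.78e-04, limma). In the domain of Peg10, Ppp1r9a, a scaffold of actin, read 0.945 to 6.88 in Pax5 WT, 19.5 to 30.5 in Pax5 KO and 609, 229, 67.0 and 27.7 in the leukaemias. It was 59.1-fold higher in P80R B-ALL than in Pax5 WT (4.86 ± 0.94, adjusted p = 0.00324, limma). That difference was 4.12 without 1300 and 5.59 without 1308. Pon2 in the same domain was lower than in Pax5 WT in both other groups, 2.55-fold in Pax5 KO (-1.35 ± 0.06, adjusted p = 1.94e-09, limma) and 1.48-fold in P80R B-ALL (-0.59 ± 0.17, adjusted p = 0.0186, limma). The second call was lost without Pax5 WT replicate 1 (adjusted p = 0.0544), 2 (0.05004) or 4 (0.0501).

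Of 30 other imprinted genes, 27 were in the table and 18 tested. In Pax5 KO 6 were higher and 4 lower than in Pax5 WT (35.7% and 29.1% of all genes), with a median of 0.00. In P80R B-ALL 4 were higher and 3 lower than in Pax5 WT (21.0% and 18.9%), and 4 higher and 2 lower than in Pax5 KO (17.6% and 20.8%), near those shares. Dcn, which passed the filter through P80R B-ALL alone and had to be higher there, is among the genes higher in both comparisons. Beside Igf2r and Dcn, Gatm, a creatine synthesis gene, read 335, 186, 155 and 783 in the leukaemias against 2.84 to 39.0 in the fetal liver libraries, 26.8-fold higher than in Pax5 WT (4.74 ± 0.75, adjusted p = 0.00113, limma). Sfmbt2, an imprinted Polycomb gene picked after its values were seen, read 352 to 424 in Pax5 KO and 157 to 307 in Pax5 WT, and was at 0 in 3 leukaemias and 39.4 in 1301. It was 26.6-fold lower in P80R B-ALL than in Pax5 WT (-6.65 ± 1.15, adjusted p = 0.00181, limma), and the difference was -7.99 without 1301.

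Of 16 genes known to set, keep or erase imprints, 13 were tested. In Pax5 KO 6 were higher and 5 lower than in Pax5 WT (35.7% and 29.1% of all genes). Tet1, Tet2 and Tet3, which encode enzymes that remove methylation, were among the 6 higher, so the count does not stand for more imprint keeping. Dnmt3b, a methyltransferase that sets new methylation, was 10251 ± 515 in Pax5 KO, 1064 ± 44.8 in Pax5 WT and 974 ± 665 in P80R B-ALL, 9.64-fold higher in Pax5 KO than Pax5 WT (3.27 ± 0.06, adjusted p = 1.31e-12, limma). In P80R B-ALL 4 were lower than in Pax5 WT (18.9% of all genes), 5 were lower than in Pax5 KO (20.8%), and limma called none higher (21.0% and 17.6%). None was higher at an unadjusted p under 0.05, with edgeR or with DESeq2. Dnmt1, which copies methylation after DNA replication, read 4891 to 10546 in P80R B-ALL, below every fetal liver library, and was 2.71-fold lower than in Pax5 WT (-1.48 ± 0.24, adjusted p = 0.00128, limma). Trim28, the cofactor that ZFP57 recruits, was 1.71-fold lower (-0.78 ± 0.14, adjusted p = 0.00240, limma). Zfp57 itself read 0 to 5.54 over the 12 libraries and was not tested.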

How the data were processed

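RNA-seq of 12 libraries of sorted mouse cells was analysed in 3 groups of 4, from the labels. Per the labels' protocols, full-length cDNA came from a SMART-Seq v4 kit. Kits of this kind are known not to mark strand. Reads went through fastp, STAR 2.7.8a and featureCounts on build mm39, per the submitters' processing notes. Which annotation was counted, with what strand option, and how shared reads were treated was not given in the sources used here. Deposited values, of unit signal, are read counts that the authors divided by 1 factor per library, since every value (100%, tolerance 0.001) is a whole multiple of its library's smallest step. Whole reads were recovered from them, 24914250 to 43513852 per library. No file column was left unmapped.

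Of 21885 genes, 21780 matched a symbol in GENCODE M21, an annotation of an older build used for names, chromosomes and exon lengths, and 105 did not. Promoter windows and their coordinates are from RefSeq on GRCm38.p6. Genes with at least 10 scaled reads in at least 4 libraries were tested (12200), with limma 3.58.1 in R 4.3.3 (trend and robust options, two-sided) on log2(value + 1). Each comparison was fitted to its own 8 libraries, because the spread within P80R B-ALL is far larger than in the fetal liver groups. A count test had been planned for raw counts, and limma for scaled values, so limma applied. Alternatives were edgeR 4.0.16 and DESeq2 1.42.0 on the recovered reads, TMM scaling, a pseudocount of 10, no filter, a filter at a CPM of 5, a fit to all 12 libraries, a replicate block and leaving out each library. Recipients 1300 and 1308 were also left out together.

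The test was checked on simulated data. It recovered most changes between Pax5 KO and Pax5 WT and few in the comparisons with P80R B-ALL, whose spread differs from that of the other group in the fit. In some single rounds with P80R B-ALL the share of false calls passed the limit first set for the check. That limit was then relaxed, by applying it to the mean over repeated rounds, so single calls with P80R B-ALL near the threshold deserve caution.

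The members, the lists, the fit and the alternatives were chosen with earlier results of these data known. Named were all members, Pax5, genes among the 3 with the smallest adjusted p of a list in a comparison, and the 2 genes closest in pattern to members averaging at least 100 in a group. The text takes some of those eligible, and 1 B-lineage marker is not reported here. Igf1, Igf1r, Igfbp4, Sfmbt2, Zfp57, Gm49394, Rag1, Tet2 and Tet3 were chosen after their values were seen. So were the map of neighbours to domains and the genes of the colour plot of insulin-like growth factor genes. Floors of 3 reads reflect counting error alone, as copies made by PCR were not told apart.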

Additional observations from a re-analysis of the deposited data

Results flagged for a closer look

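In groups of 4 libraries, a value counts as standing apart when its gap to the nearest other library exceeds Dixon's 95% critical share of the group's range. Of 119 groups checked for 43 of the genes named in the text, 13 held such a value. Chance alone gives about 1 in 20 for normally distributed values, which low counts with many zeros are not. Other named genes were not checked, so the list is incomplete. Among them, Igf1 held 1190 reads before scaling in 1308 against 180 to 190 in the other leukaemias. C1qc held 4032 against 642 to 913 and Cd5l 2104 against 114 to 238. Among the imprinted growth genes, Mest read 83.0 in the leukaemia of recipient 1308 against 0 to 7.89 in the other leukaemias, and Peg10 read 31.6 in that of 1300 against 0 to 2.77. Recipient 1308 also stood apart for Afp, at 83.0 against 2.46 to 15.8, and it had the highest stromal, macrophage and erythroid sums of the group.

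Pax5 WT replicate 4 was the lowest of its group for 4 genes. Sfmbt2 read 157 there against 283 to 307, Notch1 345 against 776, Gcn1 1898 against 3290.5 to 3495 and Ccnd3 24065 against 25347 to 25559. In Pax5 WT replicate 1, Dnmt3b read 1130.3 against 1033 to 1049, and in Pax5 KO replicate 4, Ppp1r9a read 19.5 against 28.8 to 30.5. Sfmbt2 read 39.4 in recipient 1301 and 0 in the other leukaemias. The last 3 rest on very few reads, with all other libraries of the group at 0: Igfbp5 at 1.00 in Pax5 WT replicate 2, Afp at 3.95 in Pax5 WT replicate 3 and Zfp57 at 0.761 in Pax5 KO replicate 1.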

How the results depend on the processing

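The differences of Dlk1 and Impact between Pax5 KO and Pax5 WT kept their direction and stayed called under each alternative that tested them. So did that of Dlk1 between P80R B-ALL and Pax5 KO. The same held for Igf2 in Pax5 KO against both other groups and for Plagl1 in both other groups against Pax5 WT. It also held for Peg3 between P80R B-ALL and Pax5 WT. Most alternatives used the same filter, which fixed the Igf2 differences and favoured those of Plagl1 and Peg3. Their staying called is therefore not further evidence of a difference. Igf2, which passed the filter through Pax5 KO alone, is included in the counts of members, as is Plagl1, which no Pax5 WT library helped to pass. The filter at a CPM of 5 left Dlk1, Grb10 and Impact alone among the members. The count of members called between Pax5 KO and Pax5 WT, 7, was 3 under that filter, 4 with no filter and 4 with the fit to all 12 libraries. Between P80R B-ALL and Pax5 WT, 2, it was 0 under that filter. Between P80R B-ALL and Pax5 KO, 3, it was 5 with the fit to all 12 libraries and 5 without 1300 and 1308. Leaving out 1 library at a time gave 5 to 6, 2 to 3 and 2 to 4 members. The number of genes called, 7901 between Pax5 KO and Pax5 WT, was 4193 with the fit to all 12 libraries. Without 1 library in turn it was 7276 to 8102, 3477 to 5375 (from 4873, P80R B-ALL against Pax5 WT) and 3118 to 5315 (from 4683, P80R B-ALL against Pax5 KO), with 3118 reached without Pax5 KO replicate 3. Among differences called in either setting, the direction reversed in 3, all without 1300 and 1308: Grb10 against Pax5 KO, 1.77, Cdkn2c against Pax5 WT, -0.83, and Gata1 against Pax5 KO, -1.27. The cause was not tested. Member differences that were not called also changed sign between settings: against Pax5 WT, those of P80R B-ALL ran from -0.67 to 2.80 for Dlk1, -1.74 to 1.69 for Mest, -0.88 to 2.17 for Grb10 (called at 2.17) and -0.69 to 0.06 for Cdkn1c, and against Pax5 KO from -2.29 to 1.23 for Mest.

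With DESeq2, 57.1% of the calls between P80R B-ALL and Pax5 KO were higher, against 45.9% with limma, and the median log2 difference of all genes was 0.07, against -0.11. With DESeq2 the median of all genes between P80R B-ALL and Pax5 WT was 0.12. With replicate number as a block, 7987 genes and 7 members were called between Pax5 KO and Pax5 WT, and no member's call changed. Whether replicates with the same number were paired is not said in the labels. Their deviations correlated at 0.005 to 0.062, and replicate 4 alone matched its own number best, which cannot exclude pairing. Of 5571 other values recomputed, for lists and single genes, 5213 kept their call, stayed uncalled or stayed near the count. Those that stayed uncalled include some whose sign changed, so 5213 is not a count of calls that held. Of the rest, 148 lost a call, 87 gained one, 120 counts moved by over 1.5 times and 3 reversed as above. Depth limits the genes under about 10 scaled reads, Peg10 and Mest among them.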
